A study of Mus musculus with 12 samples.

Results

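The genes described here are the 10 rows of the count table named *Dsp*, *Pkp2*, *Dsg2*, *Dsc2*, *Jup*, *Cdh2*, *Ctnna3*, *Tmem43*, *Des* and *Tjp1*, out of 54658 gene names. They encode proteins of the desmosome and the adherens junction of cardiomyocytes, the intermediate filament protein desmin, the tight junction scaffold ZO-1 and a nuclear envelope protein. They were chosen by name, with earlier results of these data known. RNA was sequenced from the left atrium (LA) of 6 iNICD mice (amHC-rtTA with TetO-NICD, 3 females and 3 males) and 6 littermate controls (amHC-rtTA alone, 4 females and 2 males), one library per animal. All of the mice were on a mixed genetic background and received doxycycline chow for 3 weeks, without washout, starting when they were 2 to 3 months old, so both the transactivator and the drug were shared by the groups. In iNICD mice the αMHC promoter drives the transactivator in cardiomyocytes, which then express the Notch1 intracellular domain; the RNA came from whole atrial tissue, in which other cell types were also present.

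Cardiomyocytes are held together end to end at the intercalated disc. In the desmosome, the cadherins desmoglein-2 and desmocollin-2 bind across the gap between cells, plakoglobin and plakophilin-2 bind the cadherin tails, and desmoplakin ties this plaque to desmin filaments inside the cell. In the adherens junction, N-cadherin is linked through β-catenin or plakoglobin and the α-catenins to actin. In the heart both kinds of junction mix in 1 structure, and inherited variants in the desmosomal genes are known for arrhythmogenic cardiomyopathy.

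All 10 genes were expressed highly enough to be tested (CPM, counts scaled to a common library total, above 1 in at least 6 libraries). In the quasi-likelihood test of edgeR, with Benjamini-Hochberg adjustment over 13541 genes and a threshold of 0.05, *Dsg2* and *Jup* rose in the iNICD LA, by log2 fold changes of 0.50 and 0.36. Thus 2 of the 10 genes were higher, while 377 of all tested genes, 2.78%, were higher (4.12% in either direction). Both are on an arrhythmia gene list that the study drew from these libraries, so their direction is not independent evidence. None of the 10 was lower (0 at an unadjusted p under 0.05, 0 with DESeq2 and 0 with the exact test of edgeR), against 181 or 1.34% of all tested genes. *Dsg2* and *Jup* were also the 2 higher genes with DESeq2 (3.87% of its genes higher and 2.47% lower), with the exact test of edgeR (3.63% and 2.06%) and without Control replicate 5 (3.66% and 2.25%). The median log2 fold change was 0.12 over the 10 genes and -0.01 over all tested genes, and 7 of the 10 had a positive value (8 without Control replicate 5, with a median of 0.14). Over the 12 fits that omit a library, the median ran from 0.08, without Control replicate 4, to 0.15, and the count of higher genes fell below 2 in 9 of the 12 fits, to 0 without iNICD replicate 4. In females 1 of the 10 genes was higher (*Dsg2*), against 241 of all genes tested there, and the median was 0.18. In males 0 of the 10 were higher in edgeR (1, *Jup*, at an unadjusted p under 0.05) and the median was 0.03. Only 8 of all genes tested in males were higher, so few calls were possible there. In bulk tissue, fewer cells of a type cannot be told apart from less RNA per cell.

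The libraries held from 21432632 to 27182038 counted reads. *Notch1*, which supplies the transgene's coding sequence, was at 108 to 131 normalized CPM (CPM after TMM scaling of the libraries) in the controls and at 2975 to 4077 in the iNICD libraries, as labelled. Control replicate 5 stood apart: 11% of tested genes lay 2-fold or more away from its group's other libraries (mean of their log2 values), against 0.96% to 2.30% in the remaining 11 libraries. Among the 10 genes it held the highest control value for 4 (*Pkp2*, *Ctnna3*, *Tmem43* and *Des*) and the lowest for 4 (*Dsg2*, *Dsc2*, *Jup* and *Tjp1*), so values without it are given beside the results of the 10 genes. The cardiomyocyte markers *Myh6*, *Tnnt2*, *Tnni3*, *Actn2*, *Actc1*, *Ttn*, *Ryr2*, *Pln* and *Ckm* were all expressed, 1 of 9 lower in iNICD libraries (*Tnnt2*) and 0 higher. Of 5 atrial markers (*Myl7*, *Sln*, *Nppa*, *Myl4* and *Bmp10*), 4 were lower.

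**Figure D1:**
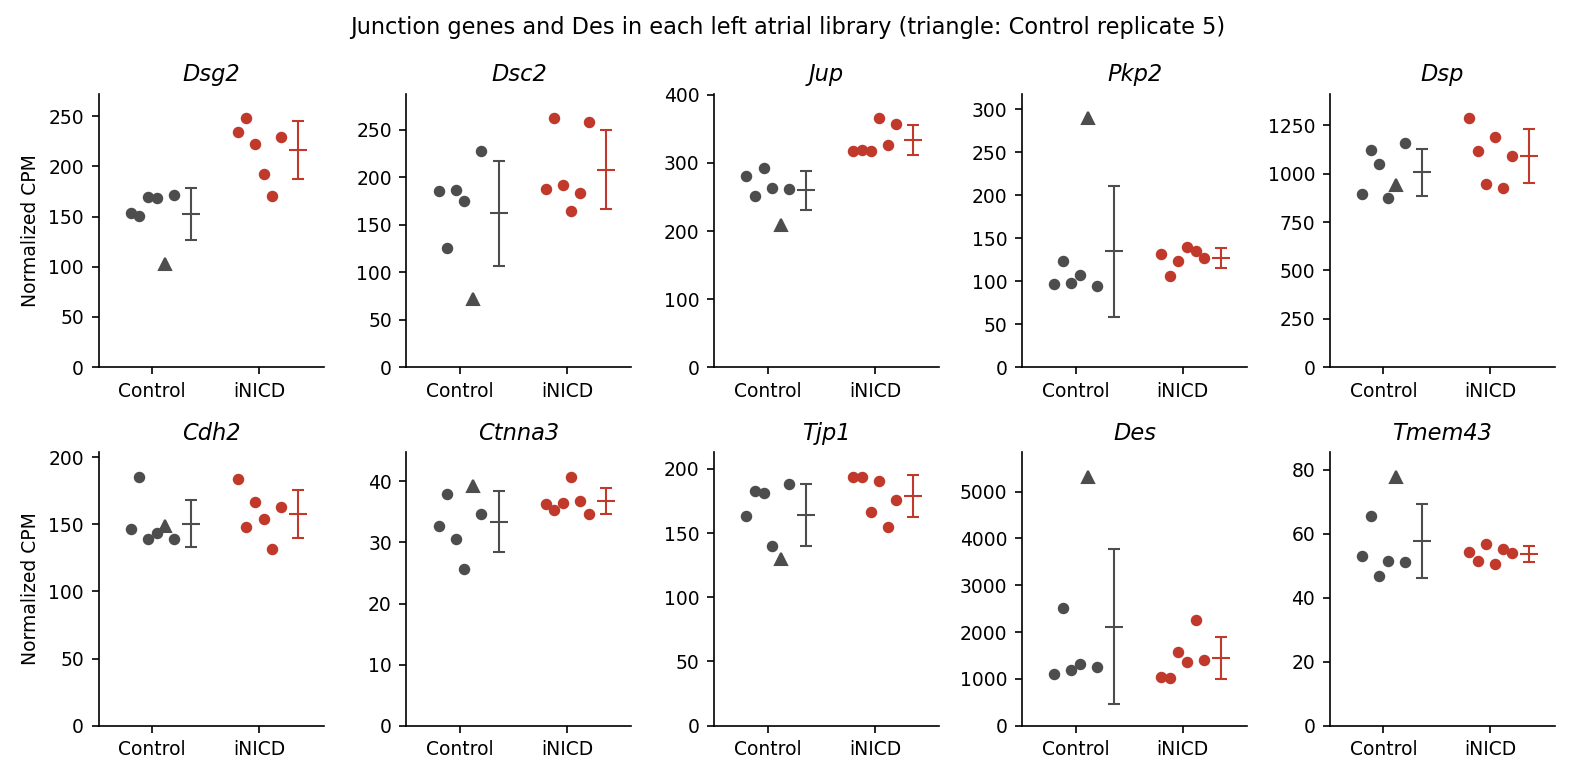
Normalized CPM of each gene (vertical axis, from 0) in the 6 control and 6 iNICD LA libraries; points are libraries, the triangle is Control replicate 5, and the bar shows the mean with SD. *Jup* is the gene whose groups do not overlap, *Dsg2* overlaps through iNICD replicate 5 alone, and the triangle lies far above the other controls for *Pkp2* and *Des*.

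Plakoglobin, encoded by *Jup* (chromosome 11 of GRCm38, 100368958 to 100397763), is the armadillo protein that serves both in the desmosome and in the adherens junction. *Jup* was at 209.6, 251, 262, 263, 280 and 292 normalized CPM in the controls. In the iNICD LA it was at 317, 317, 319.5, 327, 357 and 365, so that every iNICD library lay above every control. Over all tested genes, 350 (2.58%) had all iNICD libraries above all controls, 169 (1.25%) had them below and 519 (3.83%) either; *Jup* was the 1 of the 10 without overlap. The means were 259.6 ± 28.6 and 333.8 ± 21.8 normalized CPM (SD, n = 6 per group), and the log2 fold change was 0.36 (SE 0.08, 95% confidence interval 0.19 to 0.53, edgeR adjusted p = 0.0217). Without Control replicate 5, the lowest control, the log2 fold change was 0.31 (edgeR adjusted p = 0.0103). The call was lost in 1 of the 12 fits that left out a library, that without iNICD replicate 4 (edgeR adjusted p = 0.0566).

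The promoter of *Jup* is shown because *Jup* was the 1 gene of the 10 with separate groups, and those of *Dsp* and *Tmem43* because they hold the letters read by RBPJ, the DNA-binding partner of the Notch intracellular domain, in genes that did not pass. RefSeq windows (GRCm38.p6, 250 bases before to 50 after a start) were given for 6 of the 10 genes. Each window was searched on both strands for TGGGAA (RBPJ), CACGTG and CACGCG (Hes and Hey repressors) and AGGTGT (T-box factors), none of whose matches overlapped another. The 250 bases before the start follow, from 5′ to 3′ on the gene's strand, with these matches in capitals. They lie at chr11:100397791-100398040 on the minus strand for *Jup*, at chr13:38151044-38151293 on the plus strand for *Dsp* and at chr6:91473457-91473706 on the plus strand for *Tmem43*.
Jup: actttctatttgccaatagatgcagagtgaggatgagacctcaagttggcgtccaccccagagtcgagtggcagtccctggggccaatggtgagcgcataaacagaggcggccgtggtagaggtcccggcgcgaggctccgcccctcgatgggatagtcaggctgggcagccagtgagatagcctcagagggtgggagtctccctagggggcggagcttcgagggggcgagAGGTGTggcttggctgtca
Dsp: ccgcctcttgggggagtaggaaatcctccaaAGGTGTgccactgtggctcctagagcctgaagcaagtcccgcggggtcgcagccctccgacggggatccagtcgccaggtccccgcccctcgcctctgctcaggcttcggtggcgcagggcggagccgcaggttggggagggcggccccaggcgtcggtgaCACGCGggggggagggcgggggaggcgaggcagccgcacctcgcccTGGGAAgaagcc
Tmem43: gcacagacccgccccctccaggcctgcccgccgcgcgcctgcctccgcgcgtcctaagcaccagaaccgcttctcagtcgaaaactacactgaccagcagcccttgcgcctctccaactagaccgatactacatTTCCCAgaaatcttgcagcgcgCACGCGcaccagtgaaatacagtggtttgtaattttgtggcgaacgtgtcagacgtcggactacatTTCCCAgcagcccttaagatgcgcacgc

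The *Jup* window held AGGTGT once, 19 to 14 bases before the start, and no TGGGAA in these letters. The *Dsp* window held TGGGAA 12 to 7 bases before the start, CACGCG and AGGTGT farther out, and a second AGGTGT 5 to 10 bases after the start, past the stretch shown. The *Tmem43* window held TGGGAA in 2 places on the opposite strand, where it reads as its reverse complement, and CACGCG in 2 places, 1 of them across the start and so left in lower case. The *Des* and *Tjp1* windows held none of the 4 motifs, and 1 of 3 *Ctnna3* windows held AGGTGT. Of all 32851 windows of the same length, 25.6% held TGGGAA, 7.15% CACGTG, 9.27% CACGCG and 13.7% AGGTGT, so such matches were common.

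The *Jup* difference was also read in each sex. The log2 fold change of *Jup* was 0.23 in females (SE 0.07) and 0.56 in males (SE 0.14), where Control replicate 5 is 1 of the 2 male controls. Within neither sex did *Jup* pass (edgeR adjusted p = 0.154 in females and 0.602 in males). The difference between the sexes had an unadjusted p of 0.0321 and an adjusted p of 0.916 in the interaction model of edgeR, so it did not pass. For *Dsg2* the log2 fold change was 0.55 in females (SE 0.07, edgeR adjusted p = 0.00917) and 0.51 in males (SE 0.26, edgeR adjusted p = 0.775). None of the 10 genes passed the interaction test (0 of all tested genes passed, 501 at an unadjusted p under 0.05, and DESeq2 called 0).

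Desmoglein-2, encoded by *Dsg2* (chromosome 18, 20558074 to 20604521), is the desmoglein of cardiomyocytes. It was at 103, 150.4, 154, 169, 169 and 172 normalized CPM in the controls. In the iNICD libraries it was at 171, 193, 223, 229, 235 and 248, and 5 of the 6 lay above all controls, the exception being iNICD replicate 5. Mean *Dsg2* went from 153 ± 25.8 to 216 ± 28.9 normalized CPM (SD, n = 6 each), and the log2 fold change was 0.50 (SE 0.13, 95% interval 0.23 to 0.77, edgeR adjusted p = 0.0427). The lowest control was Control replicate 5, and without it the log2 fold change was 0.41 (edgeR adjusted p = 0.0220). The call lay close to the threshold: it held in 3 of the 12 fits that left out a library, those without Control replicate 5, Control replicate 6 or iNICD replicate 5. It was lost without any one of Control replicates 1, 2, 3 and 4 or iNICD replicates 1, 2, 3, 4 and 6, with log2 fold changes that stayed between 0.41 and 0.56 over the 12 fits and edgeR adjusted p-values up to 0.0952. *Dsg2*, *Dsp* and *Des* share exon bases with an antisense name (*Gm16090*, *Gm10129* and *Gm15179*), which had at most 2, 16 and 41 counts in a library.

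*Dsc2* (chromosome 18, 20030633 to 20059554) encodes desmocollin-2, the partner cadherin of desmoglein-2. Its lowest, median and highest values were 71.8, 181 and 227 normalized CPM in the controls and 165, 190 and 262 in the iNICD libraries. The groups overlapped, with 2 iNICD libraries above all controls, and Control replicate 5 was again the lowest. The log2 fold change was 0.36, the same size as that of *Jup*, but less precise (SE 0.23, 95% interval -0.13 to 0.86, edgeR adjusted p = 0.447). Without Control replicate 5 it was 0.21 (edgeR adjusted p = 0.536).

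*Pkp2* (chromosome 16, 16213318 to 16272712) encodes plakophilin-2, the plaque protein that clusters the cadherins with desmoplakin. Of the controls, 5 lay between 94.1 and 124 normalized CPM, and Control replicate 5 was at 289. The iNICD libraries lay between 106 and 140, with a median of 129 against 102 in the controls. With all libraries the log2 fold change of *Pkp2* was -0.08 (SE 0.26, 95% interval -0.64 to 0.47, edgeR adjusted p = 0.897). Without Control replicate 5 its sign turned, to 0.29 (SE 0.08, 95% interval 0.11 to 0.48), and 4 of the 6 iNICD libraries lay above the remaining 5 controls. The adjusted p was then 0.0672 in edgeR, so *Pkp2* did not pass in either fit.

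*Dsp* (chromosome 13, 38151294 to 38198577) encodes desmoplakin, which links the plaque to desmin. It had 875, 995 and 1159 normalized CPM as the lowest, median and highest control values, and 927, 1103 and 1287 in the iNICD LA. Its log2 fold change was 0.12 (SE 0.10, 95% interval -0.10 to 0.34, edgeR adjusted p = 0.586), 0.10 without Control replicate 5 and 0.07 without iNICD replicate 1, the highest iNICD library, and 2 iNICD libraries lay above all controls.

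**Figure D2:**
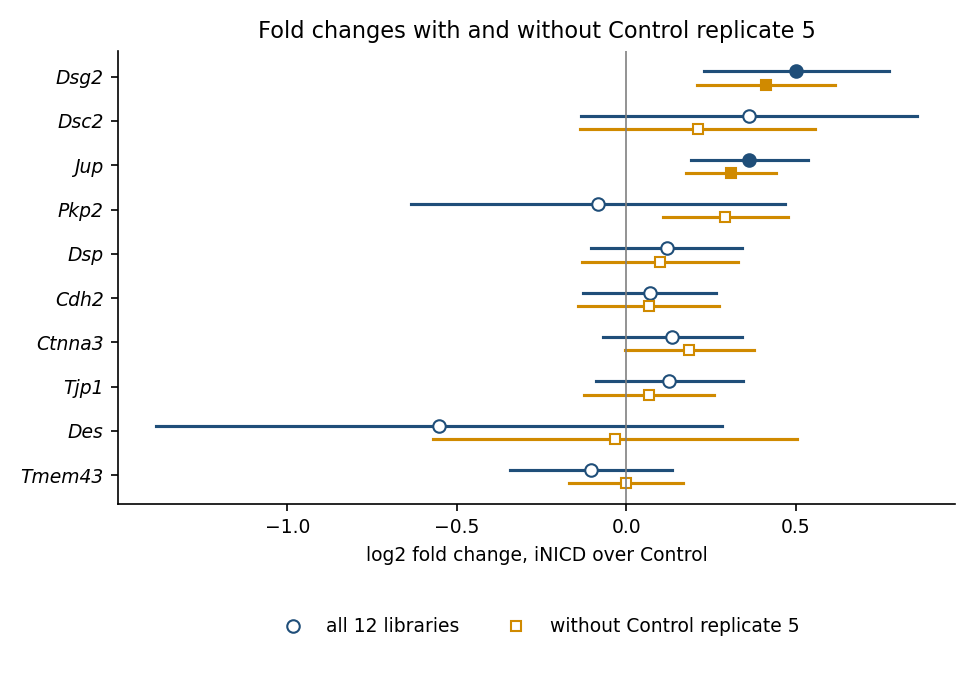
Log2 fold change of each gene, iNICD over control (horizontal axis), with its 95% confidence interval, from all 12 libraries (circles) and without Control replicate 5 (squares); filled symbols have an edgeR adjusted p under 0.05. *Dsg2* and *Jup* are filled in both fits, and *Pkp2* moves from -0.08 to 0.29.

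Among the adherens junction genes, *Cdh2* (chromosome 18, 16588877 to 16809246), which encodes N-cadherin, was at 139, 145 and 185 normalized CPM (lowest, median and highest) in the controls and at 132, 158 and 184 in the iNICD libraries. The groups covered nearly the same range, and the log2 fold change was 0.07 (95% interval -0.13 to 0.27, edgeR adjusted p = 0.736), and 0.07 without Control replicate 5. It was 0.13 without Control replicate 2, the highest control, 0.12 without iNICD replicate 5 and 0.02 without iNICD replicate 1. *Ctnna3* (chromosome 10, 63430098 to 65003667) encodes αT-catenin, the α-catenin restricted largely to heart and testis, which binds plakophilin-2. It was at 25.7, 33.6 and 39.2 normalized CPM in the controls and at 34.6, 36.4 and 40.7 in the iNICD LA, where the values were closer together. The log2 fold change of *Ctnna3* was 0.14 (95% interval -0.07 to 0.34, edgeR adjusted p = 0.490), 0.19 without Control replicate 5 (edgeR adjusted p = 0.273) and 0.07 without Control replicate 4, the lowest control.

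*Tjp1* (chromosome 7, 65296165 to 65527781) encodes ZO-1, the scaffold at the rim of gap junction plaques that also binds the α-catenins. It was at 130, 172 and 188 normalized CPM in the controls and at 154, 183 and 194 in the iNICD LA, and 3 iNICD libraries lay above all controls. The log2 fold change was 0.13 (95% interval -0.09 to 0.34, edgeR adjusted p = 0.551) and 0.07 without Control replicate 5.

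*Des* (chromosome 1, 75360329 to 75368579) encodes desmin, the muscle intermediate filament that is anchored at desmosomes and Z-discs. It was the most variable of the 10 genes: the controls were at 1110, 1192, 1261, 1309, 2520 and 5315 normalized CPM, the last being Control replicate 5. The iNICD libraries were at 1025, 1050, 1355, 1412, 1573 and 2254. The log2 fold change was -0.55 (SE 0.39, 95% interval -1.39 to 0.28, edgeR adjusted p = 0.492), and without Control replicate 5 it was -0.03 (95% interval -0.57 to 0.50, edgeR adjusted p = 0.958). Control replicate 2 and iNICD replicate 5 also stood above the rest of their groups, so that both groups spread widely.

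*Tmem43* (chromosome 6, 91473703 to 91488463) encodes LUMA, a transmembrane protein of the nuclear envelope that is known for arrhythmogenic cardiomyopathy. It was at 47.0, 52.4 and 77.8 normalized CPM in the controls and within 50.5 to 56.8 in the iNICD libraries. The log2 fold change of *Tmem43* was -0.10 (95% interval -0.34 to 0.14, edgeR adjusted p = 0.665), and without Control replicate 5 its estimate was at 0 to 2 decimals with an interval of -0.17 to 0.17. It was -0.16 without Control replicate 3, the lowest control.

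To compare levels between genes, normalized CPM were divided by the length in kilobases that is deposited with the counts, which equalled the union of the exons in GENCODE M21 for all 10. On this scale *Des* was the highest in the controls, with a median of 342 normalized CPM per kilobase and a range of 296 to 1416. *Dsp* followed with 103 (90.6 to 120.0), then *Jup* with 40.7 (32.6 to 45.4) and *Dsc2* with 34.2 (13.6 to 43.1). *Dsc2* overlapped *Jup*. *Tjp1*, *Dsg2*, *Pkp2* and *Cdh2* had medians of 22.1, 19.5, 19.1 and 17.96 and could not be ordered beyond the spread between libraries. *Tmem43* was at 13.2, with a range of 11.8 to 19.6 that overlapped these 4, and *Ctnna3* was the lowest at 4.65. In the iNICD LA the medians of *Jup* and *Dsg2* were 50.2 (49.2 to 56.8) and 27.3 (20.6 to 30.0), and the order of *Des*, *Dsp* and *Jup* was the same.

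Ratios of these levels within a library do not depend on depth, and they are given as descriptions, without a test. *Jup* relative to *Ctnnb1*, the β-catenin gene and its paralog, ranged from 0.318 to 0.437 in the controls (median 0.385) and from 0.437 to 0.539 in the iNICD LA (median 0.481). The groups met but did not overlap, the highest control being at 0.4368 and the lowest iNICD library at 0.4370. *Ctnnb1* had a log2 fold change of 0.02 (95% interval -0.09 to 0.14, edgeR adjusted p = 0.858). *Dsg2* relative to *Cdh2*, the desmosomal to the classical cadherin, ranged from 0.678 to 1.20 in the controls and from 1.22 to 1.63 in the iNICD LA, again without overlap. The lowest control ratios of *Dsg2* to *Cdh2* were those of replicates 5 and 2. Both separated ratios have a gene called higher as numerator, and the pairs were chosen with earlier results known. Their separation is therefore not independent evidence.

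The other ratios given here overlapped. *Dsg2* to *Dsc2*, the desmosomal cadherin pair, had medians of 0.596 and 0.672, and *Jup* to *Dsp* had medians of 0.378 and 0.477 with 3 iNICD libraries above all controls. *Ctnna3* to *Ctnna1*, the heart-restricted to the widespread α-catenin, had medians of 0.0213 and 0.0231. *Pkp2* to *Dsp* reached 0.555 in Control replicate 5 and lay between 0.146 and 0.263 in the other 11 libraries. *Des* to *Vim* was 8.46 in Control replicate 5, against 3.31 to 4.78 in the other controls and 2.67 to 6.36 in the iNICD LA.

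**Figure D3:**
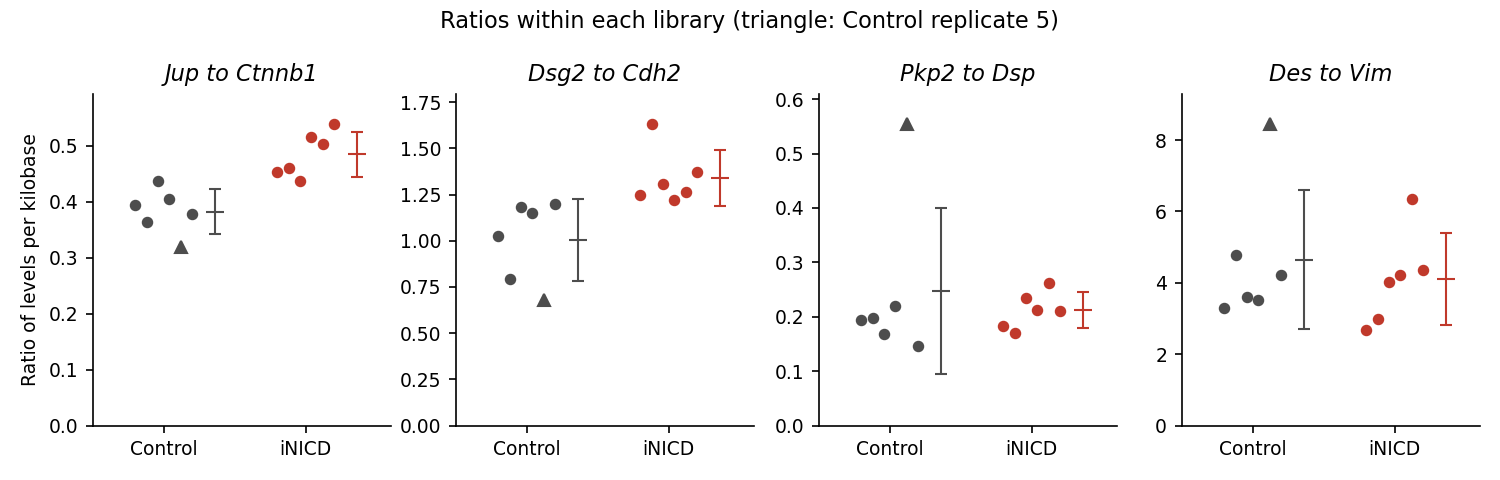
Ratio of levels per kilobase within each library (vertical axes, from 0) for 4 gene pairs in 6 control and 6 iNICD libraries, with the mean and SD; the triangle is Control replicate 5. For *Jup* to *Ctnnb1* and *Dsg2* to *Cdh2* all iNICD libraries lie above all controls, and for *Pkp2* to *Dsp* and *Des* to *Vim* the groups overlap and the triangle is the highest point.

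The rest of the junction was followed with 5 lists of 99 genes in all, of which 83 were tested. Of these, 6 were higher in the iNICD LA in the quasi-likelihood test of edgeR, or 7.23% against 2.78% of all tested genes. The lists were chosen with earlier results of these data known, so this share is not independent evidence. In the same test 0 were lower (6 at an unadjusted p under 0.05), and DESeq2 and the exact test of edgeR each called 1 lower, *Krt18*. The median log2 fold change of the 83 genes was -0.08, and 24 were positive; without Control replicate 5 the median was -0.02, 37 were positive, 6 were higher and 1 was lower. *Krt18*, a keratin gene named after its values were seen, had a log2 fold change of -0.79 with an adjusted p of 0.0638 in the quasi-likelihood test of edgeR.

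Of 13 other desmosome genes, 4 were tested and 1 rose. *Perp* (chromosome 10, 18845020 to 18857073), which encodes a tetraspan membrane protein of desmosomes, was at 137, 201 and 251 normalized CPM (lowest, median and highest) in the controls and at 401, 452 and 493 in the iNICD LA. Its log2 fold change of 1.20 (SE 0.15, edgeR adjusted p = 5.51e-04) was larger than that of any of the 10 genes, the groups were far apart, and it was 1.11 without Control replicate 5, the lowest control. The 9 desmosome genes below the filter (*Pkp1*, *Pkp3*, *Dsg1a*, *Dsg1b*, *Dsg1c*, *Dsg3*, *Dsg4*, *Dsc1* and *Dsc3*), which belong mainly to stratified epithelia, had at most 20 counts in any library. *Pkp4*, which encodes the plakophilin-related p0071, had a log2 fold change of 0.45 (edgeR adjusted p = 0.0548), and is named after its values were seen. It was higher with DESeq2, with the exact test of edgeR and with sex as a covariate, which each called 7 of the list genes higher in all. The 7 were not the same genes: with sex as a covariate *Dmd* was called and *Nectin2* was not.

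Of 22 other adherens junction genes, 18 were tested and 3 rose, with a median log2 fold change of 0.01. *Cdh13* encodes T-cadherin, which has a lipid anchor in place of a cytoplasmic tail; it went from a control range of 296 to 393 to an iNICD range of 571 to 683 normalized CPM, with a log2 fold change of 0.78 (SE 0.07, edgeR adjusted p = 4.08e-05). *Arvcf*, a catenin of the p120 family, had control values of 18.9 to 24.1 and iNICD values of 28.6 to 36.9 normalized CPM, without overlap (log2 fold change 0.52, edgeR adjusted p = 0.00271). *Nectin2*, an immunoglobulin-like adhesion molecule, had overlapping ranges of 29.8 to 45.3 and 44.4 to 63.4 normalized CPM and a log2 fold change of 0.45 (edgeR adjusted p = 0.0407). It was lost without any one of Control replicates 1, 2, 3 and 6 or iNICD replicates 2, 4, 5 and 6. *Nectin2* was also lost with no expression filter and with sex as a covariate. *Ctnna1*, at a log2 fold change of 0.02 (95% interval -0.09 to 0.13), did not pass, and neither did *Ctnnb1*.

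Of 30 other intercalated disc genes, 27 were tested and 2 rose, with a median log2 fold change of -0.12 that became 0.02 without Control replicate 5. *Ank3* encodes ankyrin-G, a membrane adaptor of the disc, and *Itga7* encodes the α7 integrin that binds laminin. *Ank3* had control values of 147 to 189 and iNICD values of 192 to 230.3 normalized CPM (log2 fold change 0.34, edgeR adjusted p = 0.0200); it did not pass without Control replicate 1, iNICD replicate 1 or iNICD replicate 4. *Itga7* had control values of 239 to 308 and iNICD values of 342 to 492 normalized CPM (log2 fold change 0.66, edgeR adjusted p = 0.00160). *Perp*, *Cdh13*, *Arvcf* and *Itga7* passed in each of the 12 fits that left out a library. Without Control replicate 5 the log2 fold changes were 0.73 for *Cdh13*, 0.48 for *Arvcf*, 0.38 for *Nectin2*, 0.34 for *Ank3* and 0.69 for *Itga7*. *Arvcf*, *Nectin2* and *Itga7* share exon bases with names on the other strand, and whether reads were counted by strand is not given in the sources used here, so their values carry that uncertainty. In Control replicate 5, the disc genes *Xirp1*, *Xirp2* and *Csrp3* stood at 2504, 1723 and 3678 normalized CPM, against highest values of 1291, 662 and 2075 in the other controls, in the same direction as *Des* and *Pkp2* there.

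None of the 22 tested intermediate filament and desmin linker genes was higher or lower in the quasi-likelihood test of edgeR (2 each way at an unadjusted p under 0.05; DESeq2 called *Krt18* lower). Of these, 3 had a positive log2 fold change, and 7 without Control replicate 5. The summed level of the list was 16816 normalized CPM in Control replicate 5, 6041 to 10011 in the other controls and 5681 to 8040 in the iNICD LA. Abundant genes weigh most in this sum, and the list did not move as a whole in Control replicate 5. There *Flnc* was at 6722 (other controls at most 2740) and *Cryab* at 3522 (at most 2232), high like *Des*. *Nebl* at 377 (432 to 553) and *Myot* at 1.08 (1.26 to 1.86) were below the other controls. Of 12 nuclear envelope partners of LUMA, 0 passed in edgeR (2 lower at an unadjusted p under 0.05, and 0 with DESeq2), and without Control replicate 5 *Tmpo* was lower (log2 fold change -0.27, edgeR adjusted p = 0.0416).

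**Figure D4:**
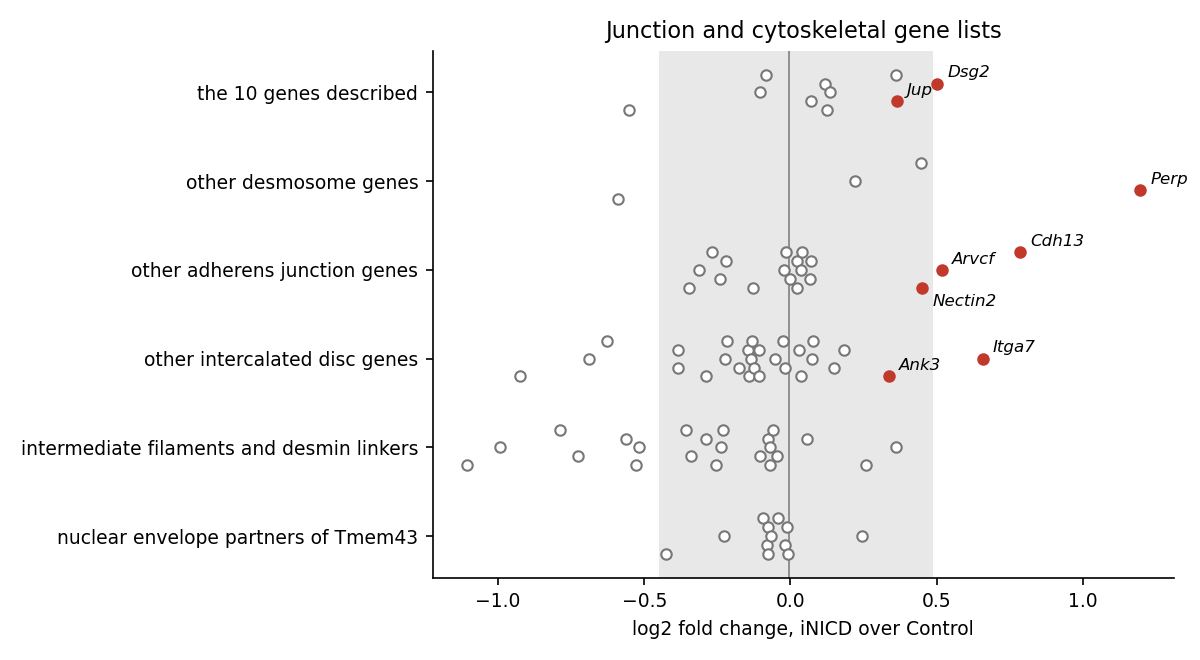
Log2 fold change, iNICD over control (horizontal axis), of each tested gene in the 6 lists; filled points have an edgeR adjusted p under 0.05, the gray band spans the 5th to 95th percentile of all 13541 tested genes and the line is their median. All 8 filled points lie to the right of the line, and *Perp* at 1.20 is the farthest right.

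Desmosomal genes are also expressed by epithelial and mesothelial cells, so their markers were read beside *Dsg2*, *Jup* and *Perp*. The 7 epithelial markers were all below the filter and summed to 0.694 to 3.79 normalized CPM in the controls and 0.341 to 1.76 in the iNICD LA, with *Sftpb* at 0 counts in every library and *Krt5* and *Sftpc* at no more than 1. The 9 epicardial and mesothelial markers summed to 284 to 382 normalized CPM in the controls and 193 to 379 in the iNICD LA. In edgeR 0 of 9 were called (1 lower at an unadjusted p under 0.05), and 0 of 9 had a positive log2 fold change. Positive values were also few among cardiomyocyte (1 of 9), atrial (0 of 5) and endothelial markers (1 of 8). They were held by 3 of 7 smooth muscle and pericyte, 6 of 7 fibroblast and 4 of 5 immune markers. *Dsg2*, *Jup* and *Perp* were positive. For endothelial markers the sums were 1046 to 1474 and 924 to 1192, for fibroblast markers 2789 to 4036 and 2887 to 4688, and for smooth muscle and pericyte markers 396 to 811 and 444 to 652 normalized CPM. The highest endothelial and smooth muscle sums were those of Control replicate 5, and the other controls reached 1234 and 631. None of the genes on these 3 lists was called (1 endothelial marker was lower at an unadjusted p under 0.05). The summed cardiomyocyte markers were at 63256 to 70292 in the controls other than replicate 5, at 80629 in Control replicate 5 and at 56322 to 66487 in the iNICD LA. The part of these cell types in the results was not tested.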

How the data were processed

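RNA of 12 LA was depleted of ribosomal RNA and sequenced by the authors with stranded single-end reads; whether counting used strand is not given in the sources used here. The deposited values are raw counts of reads per gene name, not normalized; the paper describes TopHat2 with HTSeq and STAR with featureCounts, and the submitters' processing notes name STAR 2.4.2a and mm10, but the table does not say which made it. The deposited table also gives a length in bases, another unit, used only for levels per kilobase. *Dsp*, *Dsg2* and *Des* share exon bases with an antisense name, whose own counts were at most 41 per library.

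Groups, sex and replicate numbers came from titles and descriptions. Genes above 1 CPM in at least 6 libraries were fitted together with edgeR 4.0.16 in R 4.3.3 (TMM, quasi-likelihood test, two-sided, Benjamini-Hochberg, threshold 0.05); standard errors came from the F statistic. The samples are labelled as biological replicates. No pair of libraries was a copy (lowest chi-square per gene 16.7). The scripts were tested on simulated counts. DESeq2 1.42.0 and the exact test of edgeR were alternatives.

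The 10 genes, the lists and the ratios were chosen with earlier results of these data known, and *Dsg2* and *Jup* are on an arrhythmia list the study drew from these libraries. All 10 genes were named, with *Notch1*, up to 3 genes each way per list by adjusted p, and the partners in the ratios. Marker lists for ventricular (0 of 2 tested called), immune (0 of 5), neural (0 of 2) and adipose cells (0 of 2) are given here once. Of the ratios, 1 is not reported here.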

Additional observations from a re-analysis of the deposited data

Results flagged for a closer look

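In 50 groups of 6 libraries (17 genes and 8 ratios, 2 groups each), 9 held a library apart from the rest by Dixon's ratio, where chance gives about 1 in 20 groups, and 5 of the 9 were Control replicate 5. In normalized CPM this library stood at 289 for *Pkp2* (other controls 94.1 to 124), at 103 for *Dsg2* (150.4 to 172) and at 5315 for *Des* (1110 to 2520). Its ratio of *Pkp2* to *Dsp* was 0.555 (0.146 to 0.220) and that of *Des* to *Vim* 8.46 (3.31 to 4.78).

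Control replicate 2 was apart for *Cdh2*, at 185 normalized CPM against 139 to 149 in the other controls. Among iNICD libraries, replicate 4 was apart for *Ctnna3* (40.7 against 34.6 to 36.9), replicate 6 for *Arvcf* (36.9 against 28.6 to 31.7), and replicate 2 for the ratio of *Dsg2* to *Cdh2* (1.63 against 1.22 to 1.37).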

How the results depend on the processing

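Of 230 values of the 10 genes under other settings, 208 kept their direction and their side of the threshold, 16 lost a call (11 for *Dsg2*, 5 for *Jup*) and 6 turned in sign. The turned values were those of *Pkp2* with the title number as a replicate block (0.0534), with the description number as a replicate block (0.0523), in females (0.18), without Control replicate 5 (0.29; the range with each library left out was -0.17 to 0.29) and without it and with sex as a covariate (0.28), and that of *Tmem43* in the last fit (0.0139), which was chosen after the data were seen. In place of 2 higher genes of the 10, there was 1 with the title number as a replicate block, 0 with the description number as a replicate block, 1 in females, 0 in males and 0 to 2 with each library left out. The titles and descriptions do not say that same-numbered libraries are paired. Deviations of same-numbered libraries correlated at -0.148 to 0.408 by title and at -0.117 to 0.408 by description. Libraries of different numbers were not compared in this way, so whether the replicate block follows a pairing is not settled. *Jup* had a log2 fold change of 0.37 with either replicate block, with an edgeR adjusted p of 0.0512 by title and 0.0875 by description. Of the list genes, 3 were higher in females, 0 in males and 4 to 6 with each library left out; 1 was lower with DESeq2, 1 with the exact test, 0 or 1 with a library left out and 2 without Control replicate 5 and with sex as a covariate. The count of lower genes of the 10 was 0 in every fit. For all tested genes, the 377 higher and 181 lower became 681 and 435 with DESeq2 (17614 genes with an adjusted p); the lower were 279 with the exact test and 92 to 304 with a library left out, and the higher were 241 in females and 8 in males, where 0 were lower. The males gave 2 controls against 3 iNICD libraries.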
